A study of Lens culinaris with 18 samples.

Results

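In the counts of M11, a natural lentil (Lens culinaris) line, 99 of 58243 genes were at or near 0 in both seed tissues, although each of them had counts in every library of the cultivars Redmoon and Gold. The genes were chosen by their values. A gene was taken if it had at least 1 CPM (the count scaled by the total of its library) in all 12 Redmoon and Gold libraries, and at most 0.1 CPM in M11 embryos and in M11 seed coats, each pooled over 3 libraries as summed counts over summed totals. Of all genes, 12078 reached this floor of 1 CPM in the cultivars, and the 99 genes were 0.82% of them. The difference between M11 and the cultivars was therefore set by the choice, and it is given as a description without a test.

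The study measured RNA from mature green seeds that were dissected into the embryo and the seed coat with its endosperm (seed coat, hereafter). M11 is the accession CN 45073, which carries a mutated LcLTP3b, the gene of a lipid transfer protein allergen, and it was compared with CDC Redmoon and CDC Gold. There were 3 libraries for each line and tissue, 18 in all. The labels do not say whether replicate libraries were made from separate plants, so p-values measure only the spread between these libraries, which may be technical.

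The embryo of a legume seed stores protein and starch in its cotyledons, and the seed coat is maternal tissue that surrounds it, with the endosperm as a thin layer between them. Lines of a crop differ in gene content and in which genes are transcribed, and RNA-seq counts hold only the reads that were assigned to the genes of 1 reference list. The deposited tables carry only identifiers, of the form Lcu.2RBY followed by the chromosome and a number, so no function is given for any of the 99 genes. The sequence of these genes in M11 was not analysed here.

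The total counts were from 19158437 to 20115328 in M11 embryo libraries and from 5907695 to 6691125 in M11 seed coat libraries. They were from 16002051 to 19677433 in Redmoon embryos, from 3270275 to 22958727 in Gold embryos, from 7571791 to 11655232 in Redmoon seed coats and from 21171045 to 24309401 in Gold seed coats. Vicilin genes, which encode an embryo storage protein, took 13.8% to 14.2% of the counts in M11 embryos, 33.1% to 35.3% in Redmoon embryos and 34.2% to 36.0% in Gold embryos. In seed coats they took 0.201% to 0.226% of M11 counts, 0.715% to 0.783% of Redmoon counts and 0.170% to 0.194% of Gold counts, so every group labelled embryo was far above every group labelled seed coat. The labels of the cultivars did not hold together across the tissues. There were 116 genes that, in each tissue, reached 2 CPM in every library of one cultivar and stayed at or below 0.1 CPM in every library of the other, and of these 0 were on in the same cultivar in both tissues and 116 were on in the other cultivar. The libraries are therefore named by their labels, and each comparison that sets a cultivar across tissues is also given with Redmoon and Gold exchanged in the seed coat. The choice of the 99 genes used all 12 cultivar libraries alike and does not change with this exchange.

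M11 had almost no counts of the 99 genes. The genes together had 22, 22 and 14 counts in the M11 embryo libraries, 58 in all, and 10 over the 3 M11 seed coat libraries, against 47650 in Redmoon embryos, 27597 in Gold embryos, 18697 in Redmoon seed coats and 79302 in Gold seed coats. Summed over the genes, the level was 0.977 ± 0.213 CPM in M11 embryos, 866 ± 15.9 in Redmoon embryos and 575 ± 34.0 in Gold embryos (SD, n = 3 libraries each). In seed coats it was 0.539 ± 0.280 CPM in M11, 622 ± 18.6 in Redmoon and 1152 ± 3.34 in Gold (SD, n = 3 libraries each). In tissue pieces, fewer cells of a type and less RNA per cell cannot be told apart.

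Of the 99 genes, 68 had 0 counts in all 6 M11 libraries. In M11 embryos 71 genes had 0 counts and 28 had between 1 and 5, and in M11 seed coats 89 had 0 counts and 10 had 1 count, with 7 genes counted in both tissues. A count of 0 over the 3 libraries allows up to 0.0507 CPM in M11 embryos and up to 0.158 CPM in M11 seed coats (3 counts over the summed totals, counting error only). The second limit lies above the ceiling of 0.1 CPM. A gene with 0 counts in M11 seed coats thus passed the ceiling as counted, while its actual level there could lie above it. Few genes lay close to the ceiling from above. Among the genes at the floor, 12 had a larger pooled M11 level between 0.1 and 0.2 CPM, 16 between 0.2 and 0.5, 22 between 0.5 and 1, and 11929 over 1 CPM.

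Just inside the ceiling, Lcu.2RBY.4g065320 had 5 counts in M11 embryos and 1 in M11 seed coats, Lcu.2RBY.1g077450 had 4 and 0, and Lcu.2RBY.4g032270 had 4 and 1. Just outside it, Lcu.2RBY.1g077620 had 1 count in M11 embryos and 2 in M11 seed coats, Lcu.2RBY.2g016140 had 6 and 2, and Lcu.2RBY.3g029930 had 2 and 2. The ceiling thus turned on single counts in the seed coat, where 0.1 CPM allows 1 count and 2 counts make 0.105 CPM. At the cultivar floor, the lowest library of Lcu.2RBY.3g063300 and of Lcu.2RBY.4g027690 was at 1.0018 CPM and that of Lcu.2RBY.3g042150 at 1.00935 CPM. Outside it, the lowest library was at 0.999872 CPM for Lcu.2RBY.3g011380, 0.983 CPM for Lcu.2RBY.L022280 and 0.924 CPM for Lcu.2RBY.3g024430.

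**Figure D1:**
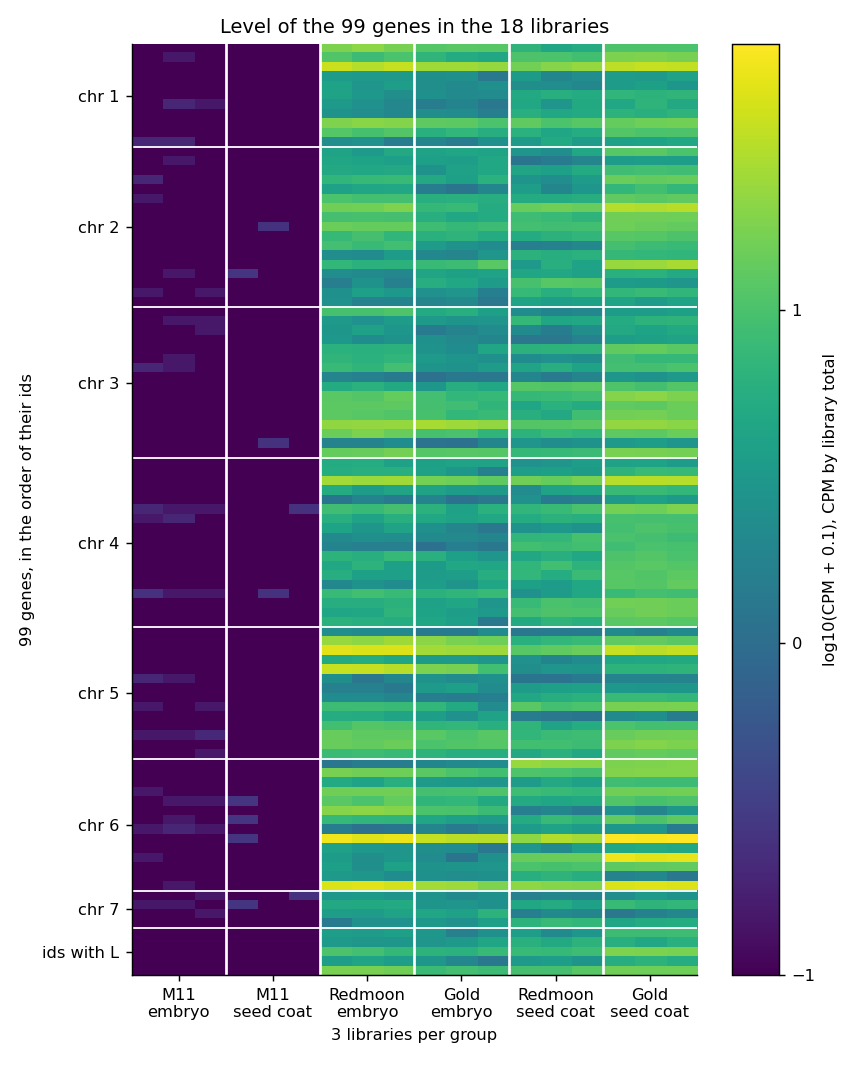
Level of the 99 genes (rows, by id within each chromosome) in the 18 libraries (columns, 3 per group), as log10 of CPM by library total plus 0.1. The 6 M11 columns are dark with scattered single counts, and all 12 cultivar columns are at 1 CPM or more because the genes were chosen so.

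The same thresholds applied to the other lines gave fewer genes or none. With Redmoon as the line without counts, 0 of 11973 genes at the floor in M11 and Gold were found, and with Gold, 0 of 12698. When the cultivars were exchanged in the seed coat, 32 of 11915 genes were absent in the libraries labelled Redmoon embryo and Gold seed coat, and 36 of 12952 were absent in those labelled Gold embryo and Redmoon seed coat. In the opposite direction, 66 of 14244 genes at the floor in all 6 M11 libraries were at most 0.1 CPM in all 4 cultivar groups. These numbers are descriptions of the files and no difference between them was tested.

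In the cultivars the 99 genes were weakly counted. The mean of the 4 cultivar groups ranged from 1.70 to 43.2 CPM with a median of 6.23 CPM, while the median over the 12078 genes at the floor was 20.5 CPM, and 13.4% of those genes were below 6.23 CPM. There were 4 of the 99 genes under 2 CPM, 35 from 2 to 5, 34 from 5 to 10, 21 from 10 to 20 and 5 at 20 CPM or more. CPM is not divided by gene length, which the tables do not give, so an order of genes by CPM is an order of reads and not of transcripts. For the genes with 0 counts in M11 embryos, the level was at least 98.96-fold higher in Redmoon embryos and at least 74.6-fold higher in Gold embryos by the median of the bounds, with 3 counts over the M11 group as the floor. For those with 0 counts in M11 seed coats, the medians of the bounds were 33.7-fold in Redmoon and 59.9-fold in Gold.

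Lcu.2RBY.6g047040 had the most reads. It had 0 counts in M11 embryos and 1 count over the M11 seed coat libraries, against 54.2, 47.5 and 51.6 CPM in Redmoon embryos, 35.3, 32.1 and 31.5 in Gold embryos, 20.8, 30.0 and 26.6 in Redmoon seed coats and 64.3, 58.7 and 65.5 in Gold seed coats. Its level was at least 1007-fold higher than in M11 in Redmoon embryos and at least 661-fold higher in Gold embryos. From the single seed coat count, the ratio was 481 for Redmoon (exact 95% interval 86.1 to 19031, counting error only) and 1195 for Gold (214 to 47195). The 4 cultivar groups kept apart from each other in CPM by library total, with Gold seed coats highest and Redmoon seed coats lowest. The order of embryo groups against seed coat groups depends on the scaling, as the tissue comparison below shows.

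Lcu.2RBY.6g070700 had 1 count in M11 embryos and 0 in M11 seed coats, against 43.3, 47.5 and 40.4 CPM in Redmoon embryos, 25.8, 24.6 and 18.04 in Gold embryos, 20.8, 19.4 and 19.0 in Redmoon seed coats and 44.2, 46.4 and 44.3 in Gold seed coats. Its ratio to M11 was 2599 in Redmoon embryos (exact 95% interval 466 to 102685) and 1459 in Gold embryos (261 to 57691), and it was at least 125-fold higher in Redmoon seed coats and at least 284-fold higher in Gold seed coats. In CPM by library total, Redmoon embryos and Gold seed coats overlapped, and so did Gold embryos and Redmoon seed coats. The first pair lay above the second. The scaling used in the tests below places embryos higher against seed coats, so these overlaps are described for library totals only.

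Lcu.2RBY.1g015210 had 0 counts in all 6 M11 libraries, against 37.7, 31.0 and 35.9 CPM in Redmoon embryos, 25.3, 25.3 and 22.9 in Gold embryos, 15.9, 19.5 and 22.9 in Redmoon seed coats and 33.0, 35.8 and 34.8 in Gold seed coats. The bounds on its fold over M11 were at least 687 in Redmoon embryos, 496 in Gold embryos, 124 in Redmoon seed coats and 218 in Gold seed coats. In CPM by library total, Redmoon embryos and Gold seed coats again overlapped, above Gold embryos and Redmoon seed coats, with the same limit of scaling.

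Lcu.2RBY.5g016340 also had 0 counts in M11 and had 47.1, 43.7 and 44.7 CPM in Redmoon embryos, 25.4, 24.5 and 24.5 in Gold embryos, 11.7, 12.9 and 14.2 in Redmoon seed coats and 36.0, 32.02 and 34.8 in Gold seed coats. Lcu.2RBY.4g022820, likewise at 0 counts in M11, had 25.5, 23.8 and 25.4 CPM in Redmoon embryos, 16.2, 15.1 and 12.5 in Gold embryos, 15.7, 13.6 and 16.7 in Redmoon seed coats and 30.6, 31.3 and 30.8 in Gold seed coats. In both genes Redmoon seed coats lay far below Gold seed coats without overlap. In CPM by library total, Lcu.2RBY.3g060470, at 0 counts in M11, differed from these in the embryo, with 21.7, 22.3 and 22.9 in Redmoon and 27.2, 24.6 and 22.3 in Gold. Its seed coat values were 11.02, 11.2 and 12.01 CPM in Redmoon and 21.8, 22.1 and 20.1 in Gold, again without overlap. The order of the cultivars in embryos depends on the scaling, as the embryo comparison below shows.

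The other genes among the 10 with the highest mean were Lcu.2RBY.6g050550, Lcu.2RBY.2g028070, Lcu.2RBY.5g015450 and Lcu.2RBY.5g019860, with means of 17.4, 17.04, 15.1 and 14.5 CPM over the cultivar groups. All of them had 0 counts in M11 but Lcu.2RBY.6g050550, which had 1 count in M11 embryos. In the plot of these 10 genes, the open triangles mark what 0 counts allow in M11, and every cultivar library lies above them.

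**Figure D2:**
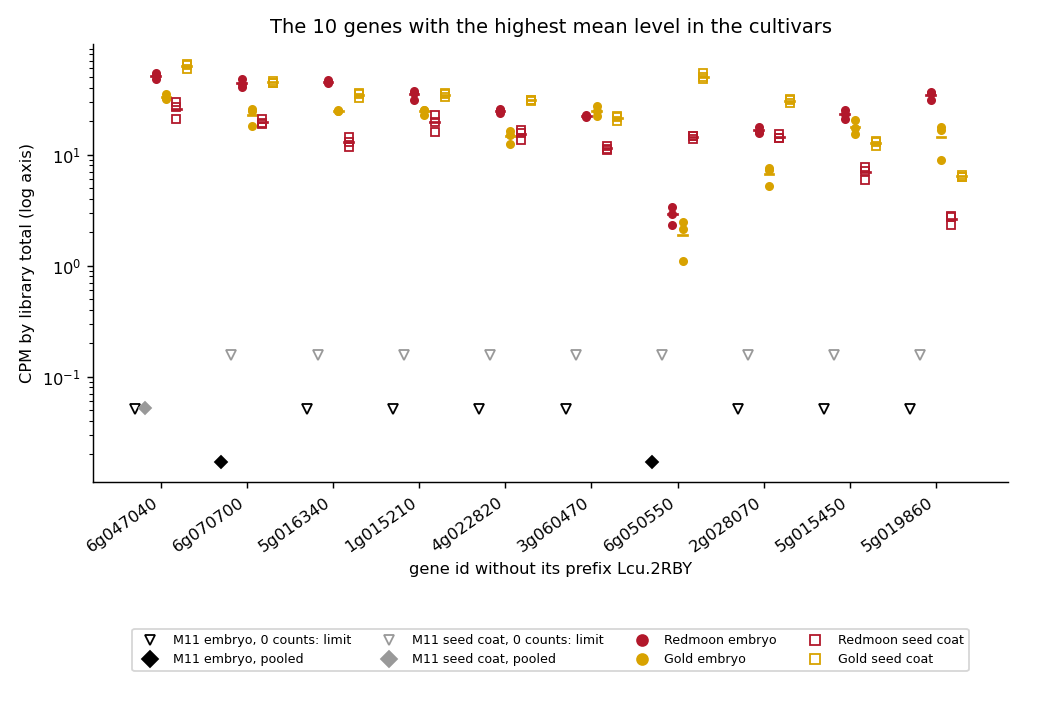
CPM by library total (log axis) of the 10 genes with the highest mean over the cultivar groups; points are single libraries and short lines the mean of 3. M11 groups are pooled over 3 libraries, as a diamond where a count was found and as an open triangle at 3 counts over the group where none was; the cultivar libraries lie from 1.09 CPM (Lcu.2RBY.6g050550, Gold embryo) to 65.5 CPM (Lcu.2RBY.6g047040, Gold seed coat).

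The tissue comparison asked whether the 99 genes were counted more in the embryo or in the seed coat of the cultivars. As the mean of both cultivars, which does not depend on the exchange of labels, 70 genes were higher in embryo, 8 were lower and 21 were not called (edgeR's quasi-likelihood test with TMM scaling, Benjamini-Hochberg adjusted over 20987 genes, threshold 0.05). Among the 12078 genes at the floor 49.8% were higher and 39.5% lower, and among all genes tested 41.6% and 43.8%. The median log2 fold change (embryo minus seed coat) was 0.69 over the 99 genes and 0.15 over the genes at the floor. The direction depends on the scaling. With library totals alone 23 of the 99 genes were higher in embryo and 57 lower (18.8% and 74.1% of the genes at the floor). The median was then -0.45 beside -0.99 over the genes at the floor. The distance between the 99 genes and the genes at the floor was 0.54 under both scalings. A change of scaling moves all genes of a contrast by nearly the same amount, so this distance could hardly change and is no check. All 6 embryo libraries lay above all 6 seed coat libraries in TMM-scaled CPM for 39 of the 99 genes (33.6% of the genes at the floor) and below them for 6 genes (26.8%).

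The largest difference was that of Lcu.2RBY.6g023590, with 19.5, 20.6 and 19.1 CPM in Redmoon embryos, 10.1, 9.89 and 7.95 in Gold embryos, 1.48, 1.85 and 1.29 in Redmoon seed coats and 2.53, 1.79 and 2.96 in Gold seed coats. Its log2 fold change between the tissues was 3.998 ± 0.11 (SE, edgeR adjusted p = 2.04e-30), and the embryo and seed coat libraries did not overlap. Lcu.2RBY.5g019860 followed, with 36.6, 35.9 and 31.1 CPM in Redmoon embryos, 17.6, 16.6 and 8.87 in Gold embryos, 2.32, 2.77 and 2.75 in Redmoon seed coats and 6.30, 6.33 and 6.58 in Gold seed coats. Its log2 fold change was 3.68 ± 0.09 (edgeR adjusted p = 1.61e-31), and the lowest embryo library, Gold embryo replicate 3 with the fewest counts, still lay above every seed coat library. The next genes were Lcu.2RBY.3g007590 with 2.59, Lcu.2RBY.5g040410 with 2.48 and Lcu.2RBY.7g039570 with 2.39 on the log2 scale.

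Lcu.2RBY.6g050550 was higher in the seed coat. It had 3.405, 2.33 and 2.94 CPM in Redmoon embryos and 2.11, 1.09 and 2.45 in Gold embryos, while it had 13.9, 14.8 and 14.8 in Redmoon seed coats and 53.8, 47.8 and 49.6 in Gold seed coats. Its log2 fold change was -2.48 ± 0.11 (edgeR adjusted p = 3.08e-23). Lcu.2RBY.6g004400 was as low in the embryo, with 1.17, 1.397 and 1.44 CPM in Redmoon embryos, 1.83, 2.00 and 2.14 in Gold embryos, 23.2, 20.6 and 19.9 in Redmoon seed coats and 17.6, 18.2 and 19.0 in Gold seed coats. Its log2 fold change was -2.47 ± 0.10 (edgeR adjusted p = 1.03e-23), and its embryo levels were near the floor that the choice of genes required. The next genes in this direction were Lcu.2RBY.4g045240 at -1.50, Lcu.2RBY.4g042840 at -0.84 and Lcu.2RBY.6g051810 at -0.79. Each of these 10 genes kept its direction and its call with library totals alone, with values from 2.85 for Lcu.2RBY.6g023590 to 1.24 for Lcu.2RBY.7g039570 among the higher genes, and from -3.63 for Lcu.2RBY.6g050550 to -1.93 for Lcu.2RBY.6g051810 among the lower ones.

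By label, 70 genes were higher and 11 lower in Redmoon embryos than in Redmoon seed coats (47.5% and 40.1% of the genes at the floor, 41.8% and 44.1% of all genes tested), with a median log2 fold change of 1.17. In Gold 52 were higher and 13 lower (46.8% and 36.4% of the genes at the floor, 39.9% and 42.5% of all), with a median of 0.36. With the labels exchanged in the seed coat, Gold embryos against Redmoon seed coats gave 76 higher and 5 lower (47.7% and 36.3% of the genes at the floor, 40.4% and 39.9% of all), with a median of 1.22, and Redmoon embryos against Gold seed coats gave 46 higher and 18 lower (46.7% and 40.3% of the genes at the floor, 39.5% and 44.4% of all), with a median of 0.21. The contrasts with Redmoon seed coats had the larger median in each reading. Leaving out Gold embryo replicate 1 raised the lower genes in Gold to 20. With library totals alone, the counts were 49 higher and 28 lower in Redmoon (27.1% and 61.8% of the genes at the floor). In Gold they were 10 higher and 83 lower (12.4% and 81.0% of the genes at the floor). For the exchanged pairs, Gold embryos against Redmoon seed coats gave 27 higher and 38 lower (14.6% and 75.5% of the genes at the floor), with a median of -0.17. Redmoon embryos against Gold seed coats gave 12 higher and 67 lower (23.2% and 67.6% of the genes at the floor), with a median of -0.68. The direction of 3 of these 4 contrasts thus turned with the scaling, and the genes at the floor shifted with it.

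**Figure D3:**
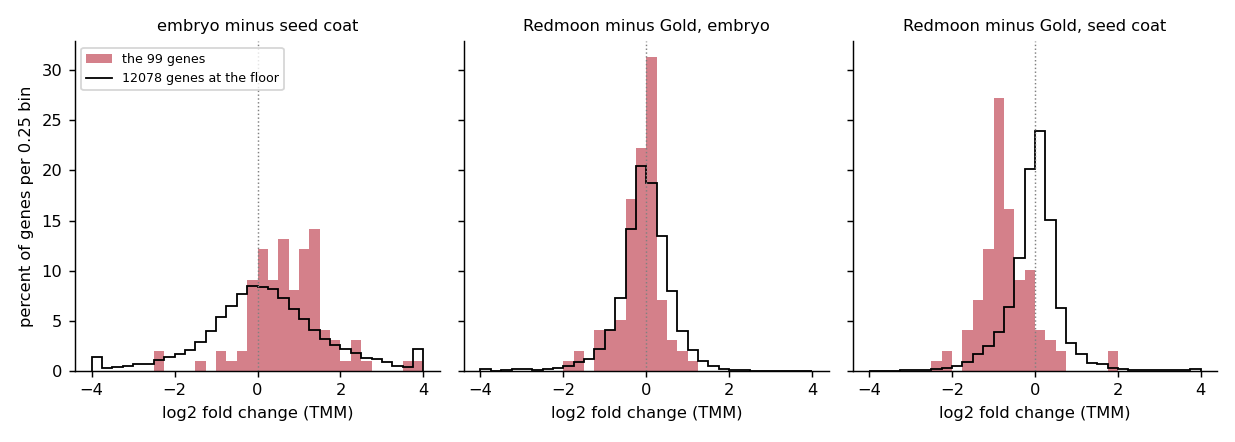
Percent of genes per bin of 0.25 in log2 fold change (TMM scaling) for the 99 genes (filled) and the 12078 genes with at least 1 CPM in all 12 cultivar libraries (line); the end bins also hold values beyond 4 in either direction. The medians of the 99 genes were 0.69 for embryo minus seed coat (-0.45 with library totals alone), -0.11 for Redmoon minus Gold in embryos (0.49 with library totals alone) and -0.78 for Redmoon minus Gold in seed coats (-0.88 with library totals alone).

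Redmoon and Gold were compared within each tissue. In seed coats, 6 of the 99 genes were higher and 71 lower in the libraries labelled Redmoon than in those labelled Gold, and 22 were not called (edgeR, adjusted as above). Of the genes at the floor 32.8% were higher and 29.3% lower, and of all genes tested 30.4% and 30.7%. The median log2 fold change (Redmoon minus Gold) was -0.78 over the 99 genes, with the middle 50% between -1.03 and -0.39, and 0.02 over the genes at the floor. The count of lower genes was 75 with library totals alone (37.3% of the genes at the floor) and 67 with DESeq2 (24.1%). All 3 Redmoon seed coat libraries lay below all 3 Gold seed coat libraries for 76 of the 99 genes (33.3% of the genes at the floor), and above them for 7 (36.4%). The total counts (7571791 to 11655232 in Redmoon, 21171045 to 24309401 in Gold) and the vicilin share (0.715% to 0.783% in Redmoon, 0.170% to 0.194% in Gold) also differed between these libraries, and the part of either in the result was not tested.

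The largest seed coat difference was that of Lcu.2RBY.2g071760, with 3.15, 5.55 and 4.12 CPM in Redmoon and 23.4, 23.7 and 26.7 in Gold. The log2 fold change came to -2.47 ± 0.14 (SE, edgeR adjusted p = 6.33e-19). In embryos it was also lower in Redmoon, with 7.06, 6.10 and 6.25 CPM against 7.79, 8.28 and 11.9 in Gold and a log2 fold change of -0.97 ± 0.13 (edgeR adjusted p = 5.8e-08). Lcu.2RBY.2g061210 had 1.48, 1.58 and 1.89 CPM in Redmoon seed coats and 9.26, 8.22 and 7.86 in Gold seed coats, a log2 fold change of -2.24 ± 0.19 (edgeR adjusted p = 5.06e-13). It went the other way in embryos, with 8.995, 7.76 and 8.81 CPM in Redmoon and 3.36, 2.66 and 2.14 in Gold, a log2 fold change of 0.94 ± 0.16 (edgeR adjusted p = 3.02e-06). Under exchanged labels, the same line would be the higher one in both tissues. Lcu.2RBY.2g018820 had 2.69, 2.25 and 3.43 CPM in Redmoon seed coats and 14.2, 13.2 and 13.9 in Gold seed coats, a log2 fold change of -2.16 ± 0.16 (edgeR adjusted p = 3.65e-15). Its embryo values overlapped after TMM scaling, with 8.25, 8.95 and 9.41 TMM-scaled CPM in Redmoon and 9.14, 6.88 and 11.1 in Gold, and the log2 fold change was 0.11 ± 0.15 (edgeR adjusted p = 0.579).

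The genes lower in Redmoon seed coats were spread over the levels and the chromosomes. Of the 26 genes at 10 CPM or more, 25 were lower and 1 was higher in Redmoon seed coats, of the 34 genes from 5 to 10 CPM 29 were lower and 1 was higher, and of the 39 genes under 5 CPM 17 were lower and 4 were higher. The medians of the log2 fold change in these classes were -0.90, -0.88 and -0.40. The genes at the floor were not split by level, so no share stands beside these counts, and the classes are not compared with each other. By chromosome, the median lay between -0.94 on chromosome 3 and -0.13 on chromosome 7. The exceptions that were higher in Redmoon seed coats were Lcu.2RBY.6g058140 at 1.98, Lcu.2RBY.2g081120 at 1.86, Lcu.2RBY.6g038690 at 0.69, Lcu.2RBY.7g047150 at 0.58, Lcu.2RBY.5g033740 at 0.43 and Lcu.2RBY.6g004400 at 0.32 on the log2 scale. Lcu.2RBY.6g058140, Lcu.2RBY.6g038690 and Lcu.2RBY.7g047150 are named here because they complete this list, after their values were seen.

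In embryos, 12 of the 99 genes were higher and 20 lower in Redmoon than in Gold, and 67 were not called (29.1% and 30.5% of the genes at the floor were higher and lower, 25.9% and 25.2% of all), with a median log2 fold change of -0.11. With library totals alone 63 were higher and 7 lower (74.3% and 7.7% of the genes at the floor). The median was then 0.49 beside 0.58 over the genes at the floor, so the direction in embryos depends on the scaling. Leaving out Gold embryo replicate 1 gave 24 higher and 13 lower, and leaving out Gold embryo replicate 2 gave 13 lower. All Redmoon embryo libraries lay below all Gold embryo libraries for 24 of the genes (28.8% of the genes at the floor) and above them for 15 (29%).

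With TMM scaling, the genes with the largest embryo differences were lower in Redmoon, while with library totals alone the highest value among the 99 genes (1.72) exceeded the lowest (-1.35) in size. Lcu.2RBY.2g081120 had 1.47, 2.59 and 1.56 CPM in Redmoon embryos and 5.48, 4.53 and 3.36 in Gold embryos, and its log2 fold change was -1.96 ± 0.20 (SE, edgeR adjusted p = 8.77e-11). In seed coats it had 9.54, 11.6 and 11.2 CPM in Redmoon and 3.43, 3.26 and 2.80 in Gold, a log2 fold change of 1.86 ± 0.16 (edgeR adjusted p = 7.66e-13). The cultivars were in opposite order in the tissues, without overlap in either, so that under exchanged labels 1 line would be the lower one throughout. Lcu.2RBY.5g033740 had 1.58, 1.60 and 1.25 CPM in Redmoon embryos and 3.12, 3.66 and 2.14 in Gold embryos, a log2 fold change of -1.74 ± 0.21 (edgeR adjusted p = 4.33e-09). Lcu.2RBY.2g074510 had 2.29, 2.02 and 1.87 CPM in Redmoon embryos and 4.23, 3.83 and 3.98 in Gold embryos, a log2 fold change of -1.56 ± 0.18 (edgeR adjusted p = 2.66e-09). With library totals alone the log2 fold changes were -1.35 for Lcu.2RBY.2g081120, -1.14 for Lcu.2RBY.5g033740 and -0.95 for Lcu.2RBY.2g074510, with the same calls.

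The cultivar difference was then compared between the tissues with an interaction term (Redmoon minus Gold in embryos, minus Redmoon minus Gold in seed coats). It was positive for 59 of the 99 genes, negative for 9 and not called for 31, where 32% of the genes at the floor were positive and 33.4% negative (29.3% and 27.8% of all genes tested). With library totals alone, 81 were positive and 7 negative by label (68.4% and 11.2% of the genes at the floor). With Redmoon and Gold exchanged in the seed coat, it was positive for 1 gene and negative for 63 (26.1% and 27.5% of the genes at the floor, 20.3% and 22.3% of all). With library totals alone the exchanged counts were 2 and 34 (59.5% and 10.9% of the genes at the floor). The exchanged median was then -0.26 in place of -0.76. Its distance from the median of the genes at the floor was -0.74 under both scalings, which a change of scaling could hardly alter. Most of the 99 genes were lower in the libraries labelled Redmoon seed coat than in those labelled Gold seed coat. The exchange renames these libraries and cannot change this comparison. Of the 26 genes that differed between the cultivars in both tissues, 17 (65.4%) went in opposite directions by label, which is close to 67.8% of such genes at the floor.

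**Figure D4:**
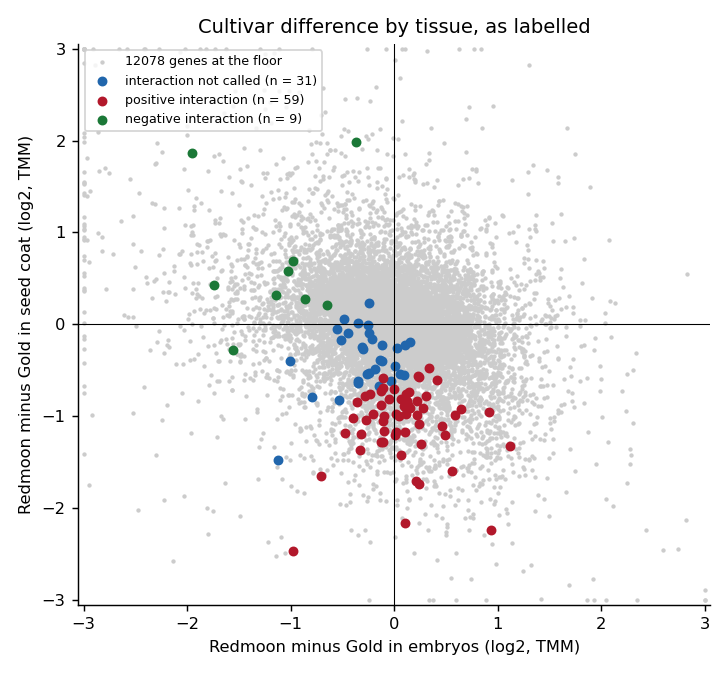
Log2 fold change (Redmoon minus Gold, TMM scaling, by label) in embryos (horizontal) and seed coats (vertical) for the 99 genes, coloured by the interaction test, and for the 12078 genes with at least 1 CPM in all 12 cultivar libraries (grey, values beyond 3 drawn at the edge). Most of the 99 genes lie below 0 on the vertical axis, also with library totals alone, with 59 positive interactions and 9 negative ones.

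The 99 genes were spread over all chromosomes. By id, 11 lay on chromosome 1, 17 on chromosome 2, 16 on chromosome 3, 18 on chromosome 4, 14 on chromosome 5, 14 on chromosome 6 and 4 on chromosome 7, and 5 had an L in place of the chromosome. The genes made up 0.687% of the genes at the floor on chromosome 1, 0.845% on chromosome 2, 0.943% on chromosome 3, 0.963% on chromosome 4, 0.873% on chromosome 5 and 0.940% on chromosome 6. The share was 0.257% on chromosome 7, with 4 of 1555 genes, and 1.99% among ids with an L, with 5 of 251. The 5 genes with an L in the id had 0 counts in all 6 M11 libraries, as did 1 of the 4 genes on chromosome 7. No test of these shares was made.

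With at most 10 genes of the table between them, 19 of the 99 genes fell into 9 clusters, which were 8 pairs and 1 group of 3, and 80 lay alone. With at most 5 genes between them the numbers were the same, and with at most 20 they were 20 genes in 9 clusters. The 8 pairs were Lcu.2RBY.1g025000 and Lcu.2RBY.1g025030, Lcu.2RBY.2g028070 and Lcu.2RBY.2g028080, Lcu.2RBY.3g041910 and Lcu.2RBY.3g041920, Lcu.2RBY.3g058160 and Lcu.2RBY.3g058170, Lcu.2RBY.4g022790 and Lcu.2RBY.4g022820, Lcu.2RBY.4g047960 and Lcu.2RBY.4g047980, Lcu.2RBY.4g066830 and Lcu.2RBY.4g066840, and Lcu.2RBY.5g053810 and Lcu.2RBY.5g053820. Counted by direct neighbours only, including Lcu.2RBY.6g020980 and Lcu.2RBY.6g020990 of the group of 3, there were 6 pairs with 12 genes.

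**Figure D5:**
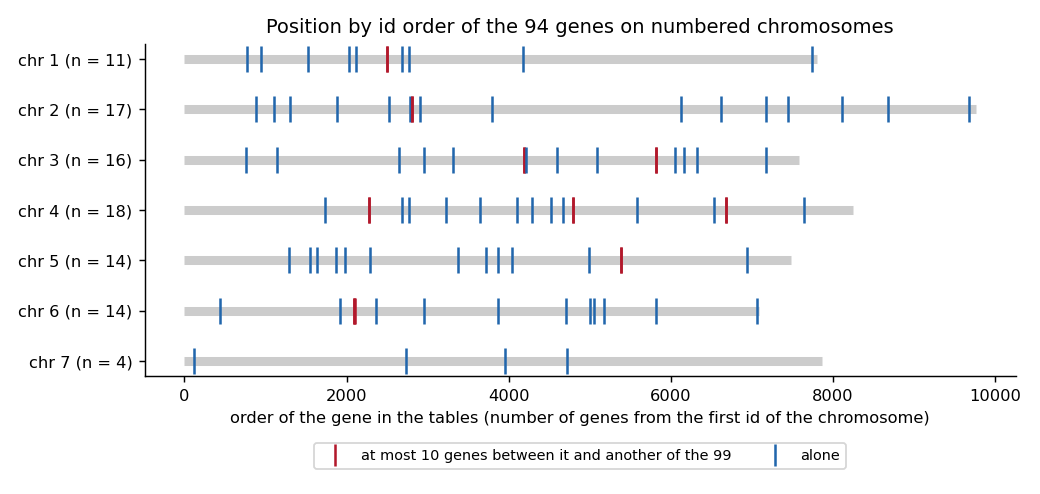
Place of the 94 genes on numbered chromosomes (rows, chromosome 1 at the top) by the order of ids in the tables, with the number of genes from the first id of the chromosome on the horizontal axis. The 19 genes in clusters (red) overlap as marks at 9 places, the 4 genes of chromosome 7 stand far apart, and the remaining genes (blue) are scattered.

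The group of 3 on chromosome 6 held Lcu.2RBY.6g020960, Lcu.2RBY.6g020980 and Lcu.2RBY.6g020990. The first had 0 counts in M11, against 5.03, 4.14 and 5.81 CPM in Redmoon embryos, 3.08, 3.01 and 2.75 in Gold embryos, 3.43, 4.75 and 3.86 in Redmoon seed coats and 8.66, 8.12 and 8.23 in Gold seed coats. Lcu.2RBY.6g020980 had 1 count in M11 embryos, against 15.4, 15.6 and 15.7 CPM in Redmoon embryos, 9.28, 9.45 and 10.7 in Gold embryos, 8.43, 7.66 and 7.12 in Redmoon seed coats and 15.3, 15.4 and 15.7 in Gold seed coats. Lcu.2RBY.6g020990 had 2 counts in M11 embryos and 1 in M11 seed coats, against 11.99, 10.1 and 13.7 CPM in Redmoon embryos, 6.78, 7.01 and 4.89 in Gold embryos, 5.09, 4.36 and 4.89 in Redmoon seed coats and 10.8, 9.68 and 10.2 in Gold seed coats. In each of the 3 genes all Gold seed coat libraries lay above all Redmoon seed coat libraries. With TMM scaling, their log2 fold changes between the seed coats (Redmoon minus Gold) were -0.98, -0.90 and -0.98. Those between the tissues (embryo minus seed coat) were 0.58, 1.30 and 1.49 with TMM scaling. That scaling places embryos higher against seed coats than the CPM by library total given here, so the tissue values depend on it. The gene between the first and second, Lcu.2RBY.6g020970, had no counts in M11 and at most 0.0749 CPM in the mean of any cultivar group, while the next gene, Lcu.2RBY.6g021000, had 20.9 CPM in M11 embryos, 71.4 in Redmoon embryos and 64.3 in Gold embryos, and 0 counts in M11 seed coats, 1.12 CPM in Redmoon seed coats and 0.0143 in Gold seed coats.

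Immediate neighbours were set against each other by the ratio of their CPM, in which the gene lengths are the same in every group. The ratio of the CPM of the first gene to the second in the 4 cultivar groups lay between 0.825 and 1.06 for Lcu.2RBY.3g058160 and Lcu.2RBY.3g058170, between 0.909 and 1.10 for Lcu.2RBY.4g066830 and Lcu.2RBY.4g066840, and between 0.839 and 1.04 for Lcu.2RBY.5g053810 and Lcu.2RBY.5g053820. For Lcu.2RBY.6g020980 and Lcu.2RBY.6g020990 it lay between 1.30 and 1.62. Its range was wider for Lcu.2RBY.2g028070 and Lcu.2RBY.2g028080, between 1.30 and 2.01, and for Lcu.2RBY.3g041910 and Lcu.2RBY.3g041920, between 0.511 and 0.954. Whether reads were shared between such neighbours could not be checked, since the handling of reads that match several genes is not given in the sources used here.

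Some genes beside or within the clusters were counted in M11. Between the members of the pair on chromosome 1, Lcu.2RBY.1g025020 had 86.9 CPM in M11 embryos, 49.0 in Redmoon embryos and 23.5 in Gold embryos, and in seed coats 21.2 CPM in M11, 16.7 in Redmoon and 25.2 in Gold. Next to the pair Lcu.2RBY.3g058160 and Lcu.2RBY.3g058170, Lcu.2RBY.3g058150 had 19.3 CPM in M11 embryos, 16.8 in Redmoon embryos and 8.62 in Gold embryos. Other bordering genes were also weakly counted in M11. Lcu.2RBY.5g053800 had 0.0663 CPM in M11 embryos, 3.07 in Redmoon embryos and 2.33 in Gold embryos, and 0.948 CPM in M11 seed coats, 19.2 in Redmoon seed coats and 26.5 in Gold seed coats. Lcu.2RBY.4g047950 had 0.0509 CPM in M11 embryos, 1.18 in Redmoon embryos and 0.743 in Gold embryos. These neighbours are named for the clusters they border, after their values were seen.

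Around all 99 genes, 846 other genes lay within 5 places in the table on the same chromosome, and 323 of them were tested between M11 and the mean of the cultivars in a fit of all 18 libraries. In embryos 121 (37.5%) were lower and 111 (34.4%) higher in M11, where 32% and 34.7% of all 22081 genes tested were lower and higher (edgeR, adjusted over those genes). In seed coats 128 (39.6%) were lower and 107 (33.1%) higher, where 32.4% and 34.5% of all genes were. The median log2 fold changes of the neighbours (M11 minus the cultivars) were -0.01 in embryos and -0.05 in seed coats, and those of all genes were 0.01 and 0. With library totals alone, 48 of the neighbours were lower in M11 embryos and 99 in M11 seed coats, so these counts depend on the scaling. The share of all genes under that scaling is not given here, so these counts are not set against a background.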

How the data were processed

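Poly(A) RNA of dissected embryos and of seed coats that kept their endosperm was sequenced for each of the 3 lines, as 3 libraries per line and tissue. The authors deposited whole-number counts per gene for 58243 genes in each library, without normalization, from TruSeq libraries read as paired ends on a NovaSeq. STAR 2.7.10 is named in the submitters' processing notes, while for the counting tool, genome build, strand setting and multi-mapped reads the entry is: not given in the sources used here. Gene annotation and sequence were not used. Samples were grouped by the genotype and tissue of the labels.

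CPM was computed from library totals for the choice of genes. The 99 genes, the lists and the tests were chosen with earlier results of these data known. The quasi-likelihood model of edgeR 4.0.16 under R 4.3.3 was used (filterByExpr, TMM, glmQLFit and glmQLFTest), with the counts of the 12 cultivar libraries in 4 groups as input, and M11 was left out of that fit. Adjusted p-values (Benjamini-Hochberg) were taken over all genes tested, with a threshold of 0.05. Neighbours were tested in a fit of all 18 libraries. The alternatives were DESeq2's size factors, library totals, DESeq2 1.42.0, other filters, a block for replicate number, an absolute log2 fold change of 1 or more, each replicate left out, other thresholds of the rule and, added after seeing the data, exchanged cultivar labels in the seed coat and immediate neighbours only. The fits were also run on simulated counts with the same fixed dispersion for every gene and group, which checks the code and not the spread of these libraries. For a gene at 0, the limit is 3 counts over the group's summed total, and exact 95% intervals cover counting error only. No replicate pair agreed within sampling noise. Named were the 2 marker genes Lcu.2RBY.1g015210 and Lcu.2RBY.6g070700, the 10 genes with the highest mean, the 5 called genes at each end of the tissue difference, the 3 called genes with the largest cultivar difference in each tissue, the clusters, and the 3 genes at each side of each threshold. Ids were read for chromosome and order only.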

Additional observations from a re-analysis of the deposited data

Results flagged for a closer look

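The difference between Redmoon and Gold changed with the tissue, by label, in an interaction test that passed the threshold of 0.05 (edgeR, adjusted over all genes tested) for 59 of the 99 genes with a positive value and for 9 with a negative one, where 32% and 33.4% of the genes at the floor and 29.3% and 27.8% of all genes tested did so. With Redmoon and Gold exchanged in the seed coat, the counts were 1 and 63. Among the 6 genes with the largest cultivar differences, the interaction (Redmoon minus Gold in embryos, minus the same in seed coats, log2) was 2.27 for Lcu.2RBY.2g018820, 3.17 for Lcu.2RBY.2g061210, 1.49 for Lcu.2RBY.2g071760, -1.27 for Lcu.2RBY.2g074510, -3.82 for Lcu.2RBY.2g081120 and -2.17 for Lcu.2RBY.5g033740. With the exchange, the values were -2.06 for Lcu.2RBY.2g018820, -1.30 for Lcu.2RBY.2g061210 and -3.44 for Lcu.2RBY.2g071760, which turned their sign, -1.84 for Lcu.2RBY.2g074510 and -1.31 for Lcu.2RBY.5g033740, which kept it, and -0.10 for Lcu.2RBY.2g081120, which was no longer called (edgeR adjusted p = 0.831). The labels of the 2 tissues disagreed for 116 genes with an on and off pattern. Each group held 3 libraries, so no test for a single outlying library was made.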

How the results depend on the processing

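The number of genes chosen was 57 with a cultivar floor of 2 CPM and lay between 68 and 120 under the other thresholds, between 98 and 103 without 1 library, and 102 with TMM-scaled sizes, of which 88 were among the 99. With library totals alone, 23 genes were higher and 57 lower in embryo as the mean of the cultivars, 28 were lower in Redmoon, 10 higher and 83 lower in Gold, 63 higher and 7 lower in Redmoon than in Gold embryos, and 48 neighbours were lower in M11 embryos. For all of these but the neighbours, the shares of the genes at the floor under that scaling are given above. With at least 10 counts in every library, the same comparisons gave 43 higher and 4 lower (mean), 4 lower (Redmoon), 34 higher (Gold), 13 lower in Redmoon embryos, 2 higher in Redmoon seed coats and 5 negative interactions. That filter left 56 of the 99 genes and 10302 of the genes at the floor. Of these genes at the floor, 45.9% were higher and 44.5% lower (mean), 43.8% were lower (Redmoon) and 43.3% higher (Gold). In Redmoon embryos 31.3% were lower, in Redmoon seed coats 32.3% were higher, and 33.5% had a negative interaction. With a log2 fold change of at least 1, the comparisons gave 40 higher and 3 lower (mean), 5 lower (Redmoon), 23 higher and 4 lower (Gold), 1 higher and 7 lower in Redmoon embryos, 2 higher and 26 lower in Redmoon seed coats, and 33 positive interactions. No share of the genes at the floor was taken with this minimum. With Redmoon and Gold exchanged in the seed coat, the comparisons gave 46 higher and 18 lower for Redmoon embryos, 5 lower for Gold embryos, 71 higher and 6 lower for the seed coats, and 1 positive and 63 negative interactions. There were 12 genes with another of the 99 immediately beside them.

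Without 1 library, the genes higher in embryo numbered 64 to 71 (mean), 69 to 71 (Redmoon) and 42 to 52 (Gold), and the lower ones 8 to 9, 9 to 13 and 12 to 20. The genes higher in Redmoon were 11 to 24 in embryos and 4 to 6 in seed coats, the lower ones 13 to 22 and 67 to 73, and the interaction was positive for 56 to 63 and negative for 9 to 10. Neighbours lower in M11 numbered 113 to 122 in embryos and 111 to 129 in seed coats. The 16 genes named for a tissue or cultivar difference kept their direction and call in all 296 values from the alternative scalings, tools, filters, block and libraries left out; the exchange of labels was not counted among these.

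Same-numbered libraries did not deviate together (correlations from -0.06 to 0.14, 1 of 45 over 0.1, and 5 of 18 libraries closest to their own number), so the numbers were not taken as pairs. With the replicate number as a block, 70 genes were higher and 8 lower in embryo, 71 were lower and 5 higher in Redmoon seed coats, 11 higher and 19 lower in Redmoon embryos, and 57 interactions were positive. DESeq2 and no filter on low counts left all of these counts within 1.5 times. Among the pooled groups, depth limits the M11 seed coat most, where 0 counts allow 0.158 CPM. The library with the fewest counts was Gold embryo replicate 3, with 3270275. There 3 counts make 0.917 CPM, so the cultivar floor of 1 CPM rested on few counts in that library.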
